A study of Mus musculus with 24 samples.

Results

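Heat shock proteins and DnaJ cochaperones were followed across the cortex of 24 mice, in RNA-seq of total RNA with 1 library per mouse. Members were the genes named Dnaja, Dnajb or Dnajc with a number, the numbered Hspa, Hspb and Hsp90 genes, and Hspd1, Hspe1, Hsph1, Hsf1 and Hsf2. By name the rule also took in Hspbp1 and Hspbap1. With Hspb11 these were grouped as chaperone partners or other genes, apart from the heat shock proteins. Names of 75 genes matched, of 43346 deposited, and the 73 with at least 10 counts in at least 6 libraries are described. The other two were Dnajb8, with 14 counts in all 24 libraries together, and Dnajc22, with 67. Dnajc19 is carried by 2 identifiers and counts as 2 of the 73. No member was chosen by its measured change, and all 73 passed the filter for low counts before testing.

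The mice formed 4 groups of 6. The genotype label was control or Abca7, and the series describes the latter as heterozygous for Abca7, a lipid transporter gene. The stimulus label was none or LPS, lipopolysaccharide from the outer membrane of Gram-negative bacteria, which was given by injection. Mice with LPS were 54 to 56 days old, unstimulated controls 55 to 57 days and unstimulated mice labelled Abca7 55 to 58 days. The dose, route and time after LPS, the strain, the vehicle and how the Abca7 allele was made are not stated in the labels. Replicate numbers only name mice, and the p-values measure the spread between these mice.

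Heat shock proteins are molecular chaperones that bind unfolded or partly folded proteins. HSP70 proteins work in cycles of ATP hydrolysis, which J-domain proteins of the DnaJ family start by delivering the client, and which HSP110 and Bag proteins reset by exchanging the nucleotide. The heat shock factors Hsf1 and Hsf2 bind heat shock elements in the promoters of inducible members, whereas Hspa5 and Hsp90b1, the HSP70 and HSP90 of the endoplasmic reticulum (ER), answer to the unfolded protein response. In brain, neurons keep high levels of constitutive HSP90 and HSP70, and small heat shock proteins are found in glia and vessels.

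Both kinds of promoter element could be read in the RefSeq promoter table (GRCm38.p6, 250 bases before to 50 after each start), which held 59 of the member symbols. The strict heat shock element (GAA, any 2 bases, TTC, any 2 bases, GAA), searched on both strands, lay in promoters of 4 of the 59 (6.78%), namely Dnajb6, Hspd1, Hspe1 and Hsph1, against 179 of all 27025 symbols (0.662%). The ER stress response element (CCAAT, any 9 bases, CCACG), also on both strands, lay in those of Dnajc3, Hsp90b1 and Hspa5, 3 of 59 (5.08%) against 37 of 27025 (0.137%). Promoters of Hspa8, Hsp90aa1, Hsp90ab1, Hspa9, Hspa13, Hspb2, Hsf1, Dnajc2, Dnajc5, Dnajc11, Dnajc12, Dnajc18 and Dnajc30 were not searched here. A match is a description of these letters, not a measured binding site. The 250 bases before the start of 4 genes are shown, with the matches in capitals: Hspe1, Hspa5 and Hsp90b1, whose transcripts moved together between mice as described further on, and Dnajc3, the other gene with the ER element. The matches lie 89 and 84 bases before the Hspe1 start and overlap each other, 65 bases before the Hspa5 start, 212 and 107 bases before the Hsp90b1 start, and 105 bases before the Dnajc3 start. Hspe1 and Hspd1 are divergent neighbours, and the matches in the promoter of Hspd1 are the same bases read on the other strand.
Hspe1, chr1:55087898-55088147, plus strand: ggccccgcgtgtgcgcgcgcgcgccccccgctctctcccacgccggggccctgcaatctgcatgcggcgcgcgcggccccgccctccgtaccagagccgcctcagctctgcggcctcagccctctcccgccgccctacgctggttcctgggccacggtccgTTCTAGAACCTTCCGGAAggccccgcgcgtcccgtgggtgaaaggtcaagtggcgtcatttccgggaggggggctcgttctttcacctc
Hspa5, chr2:34771840-34772089, plus strand: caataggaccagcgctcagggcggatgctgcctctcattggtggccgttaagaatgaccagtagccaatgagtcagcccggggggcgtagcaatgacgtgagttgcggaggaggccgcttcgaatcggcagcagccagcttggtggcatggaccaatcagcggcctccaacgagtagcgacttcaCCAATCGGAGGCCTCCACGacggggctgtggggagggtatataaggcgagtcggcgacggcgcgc
Hsp90b1, chr10:86705445-86705694, minus strand: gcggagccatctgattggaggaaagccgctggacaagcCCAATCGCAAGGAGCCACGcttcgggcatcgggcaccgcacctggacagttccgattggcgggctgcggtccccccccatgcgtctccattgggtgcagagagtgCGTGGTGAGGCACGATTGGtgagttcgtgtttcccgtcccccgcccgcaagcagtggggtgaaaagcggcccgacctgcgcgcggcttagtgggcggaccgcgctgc
Dnajc3, chr14:118937682-118937931, plus strand: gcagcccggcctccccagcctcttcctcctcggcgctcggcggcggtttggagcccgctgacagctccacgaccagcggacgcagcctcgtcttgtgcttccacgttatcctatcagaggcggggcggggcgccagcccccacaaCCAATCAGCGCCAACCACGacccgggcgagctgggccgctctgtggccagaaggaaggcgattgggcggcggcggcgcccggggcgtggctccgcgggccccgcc

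Library totals ran from 48149131 to 75741388 counts, of which the members took 0.616% to 0.770%. Markers of neurons were high in every library, with 7127 to 8281 CPM (a count relative to the TMM-scaled total of its library) over 10 genes. Markers of choroid plexus, a tissue outside the cortex, differed widely: their 10 genes summed to 17.2 to 315 CPM in unstimulated controls, 197 to 564 in controls with LPS, 64.3 to 518 in unstimulated mice labelled Abca7 and 38.4 to 448 in those with LPS. In control mice 7 of the 10 rose with LPS (Ttr log2 fold change 2.42 ± 0.74 SE, adjusted p = 0.023, edgeR), so choroid plexus transcripts moved with that comparison. Replicate 1 of the unstimulated controls was an exception, with 261 CPM of Ttr against 4.94 to 19.7 in the others. Controls with LPS had 165 to 485. In mice labelled Abca7 0 of the 10 were called. Of 10 microglial markers 9 fell in each genotype. The other, C1qa, rose in mice labelled Abca7 (log2 fold change 0.25, adjusted p = 0.00323) and had 0.16 in control mice (adjusted p = 0.0536, edgeR).

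Per kilobase of the gene length in the deposited table, Hsp90ab1, a constitutive cytosolic HSP90, had the highest mean level over the 24 libraries, 371 CPM per kb. Hspa8, the constitutive HSP70, followed at 130 and Hsp90aa1, the inducible cytosolic HSP90, at 117. Of the 50-base sequences of Hspa8 and Hsp90aa1, 39.4% and 47.5% also occur in other genes, so their levels are uncertain. The lowest were Hspb7 at 0.081, Dnajb7 at 0.090 and Hspb9 at 0.223 CPM per kb. The members thus spanned the range from abundant housekeeping chaperones to transcripts near the limit of counting, and Hspb9 had no count in 1 control library with LPS.

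Calls of members under LPS were set beside the share over all genes tested. In control mice 3 of the 73 rose and 6 fell at adjusted p under 0.05 (edgeR quasi-likelihood test, Benjamini-Hochberg over 21891 genes), which is 4.11% and 8.22% of the members against 9.39% and 7.92% of all genes tested. In mice labelled Abca7 2 rose and 5 fell, 2.74% and 6.85% against 6.65% and 5.18%. The same direction was called in both genotypes for 6 members (8.22%, against 9.79% of all genes): Hspa12b, Dnajb5, Dnajc21, Dnajc1 and Dnajb1 fell and Hspb6 rose. The median absolute log2 fold change of the members was 0.050 in control and 0.065 in mice labelled Abca7, beside 0.108 and 0.094 over all genes tested. The 2 groups of 6 did not overlap for 7 members in control mice (9.59%, against 9.06% of all genes tested) and for 3 in mice labelled Abca7 (4.11%, against 5.73%). With the level of Ttr as a covariate, 2 members rose and 4 fell in control mice, and 4.46% and 2.96% of all genes. The calls of Hspb6, Dnajb3, Dnajc1 and Dnajc14 were lost in that fit and Dnajb6, named here after its values were seen, passed among those that rose. The plot of the fold changes by role shows most members close to no change in both genotypes.

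**Figure D1:**
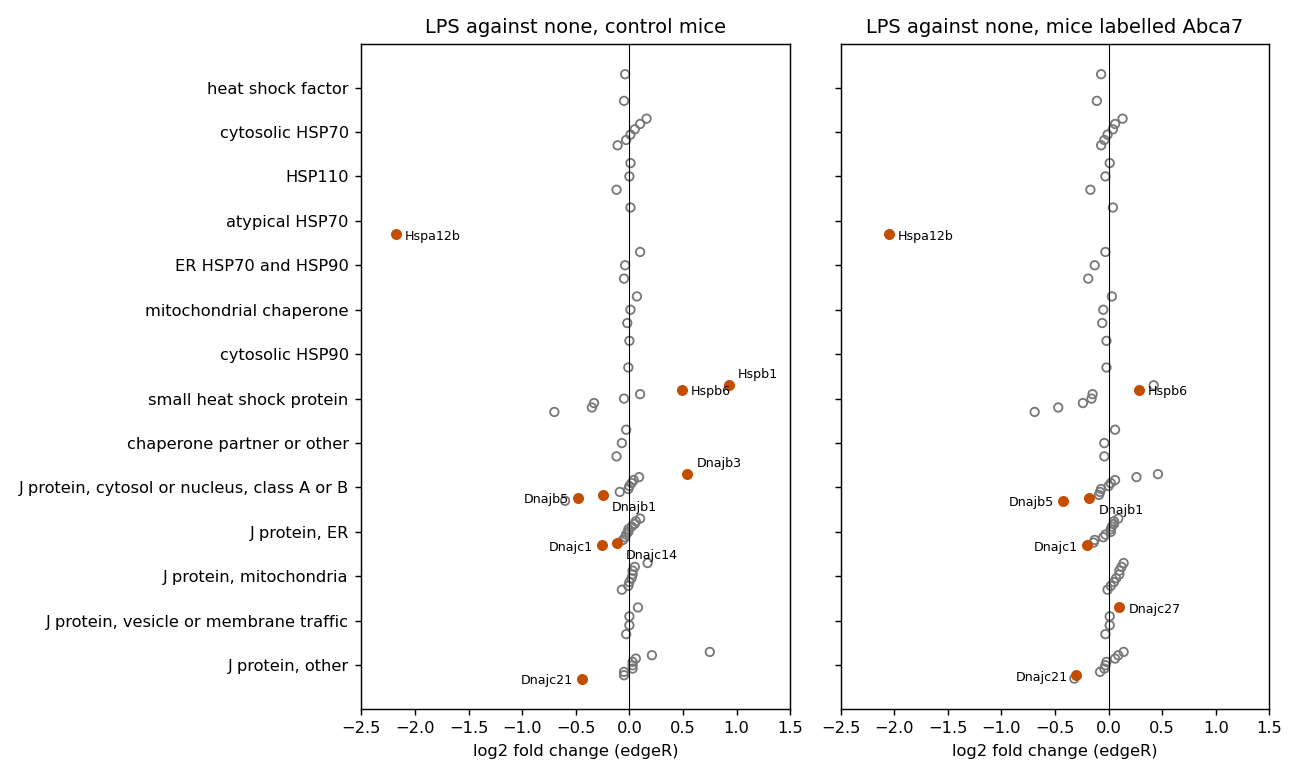
Log2 fold change of each of the 73 members under LPS against none (x axis), sorted by role of the protein (y axis), in control mice (left) and mice labelled Abca7 (right). Filled points passed adjusted p 0.05 and open points did not; Hspa12b lies near -2.18 and -2.05, apart from all other members.

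Hspa12b (ENSMUSG00000074793, chr2:131127280-131146321, coordinates here and for the other genes from the deposited table on mm10), an atypical HSP70 known from endothelial cells, fell most. Its level ran from 7.91 to 9.91 CPM (median 9.75) in unstimulated controls and from 1.75 to 2.57 (median 1.92) in controls with LPS. With the Abca7 label it ran from 8.86 to 11 (median 9.91) without LPS and from 1.84 to 3.84 (median 2.19) with LPS. All 12 libraries with LPS lay below all 12 without it, and the highest of the LPS libraries was replicate 4 of the mice labelled Abca7.

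The fall of Hspa12b was 4.54-fold in control mice (log2 fold change -2.18 ± 0.13 SE, adjusted p = 9.07e-13) and 4.14-fold in mice labelled Abca7 (-2.05 ± 0.13, adjusted p = 4e-12; edgeR). Of the 21891 genes tested 18 fell at least as far, Hspa12b included, in each genotype. The difference between the genotypes' responses was 0.13 on the log2 scale (95% interval -0.25 to 0.52, adjusted p = 1). Hspa12a, the related gene, lay at 212 to 232 CPM in unstimulated controls and 206 to 236 with LPS, and its fold change was 0.01 ± 0.03 (adjusted p = 0.88).

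Endothelial markers moved in the same comparison. Of 12 listed, 8 fell and 3 rose in each genotype, with a median log2 fold change of -0.79 in control mice and -0.69 in mice labelled Abca7. Slco1a4, a transporter of brain endothelium, had log2 fold changes of -2.23 and -1.88, and Tek, an angiopoietin receptor, -1.86 and -1.55. Cdh5, the endothelial cadherin, rose by 1.41 and 1.13. Replicate 4 of the mice labelled Abca7 with LPS stood apart for Slco1a4, Tek and Cdh5 too. It had 26.1 CPM of Slco1a4 against 9.76 to 16.8 in the others of its group. For Tek it had 5.94 against 3.66 to 4.37, and for Cdh5 13.1 against 23.6 to 30.6. For Cldn5, another of the 12 markers, it lay within the range of the others, at 5.04 CPM against 3.42 to 6.79. Its level of Gfap, an astrocyte gene, was also the lowest of its group, 140 CPM against 153 to 229. Without it the log2 fold changes in mice labelled Abca7 were -2.23 for Hspa12b (adjusted p = 1.04e-14), -2.13 for Slco1a4, -1.67 for Tek and 1.26 for Cdh5 (edgeR). The 12 markers summed to 228 to 243 CPM in unstimulated controls and 168 to 177 with LPS, and to 219 to 256 and 160 to 183 in mice labelled Abca7, with none at 0. Fewer cells of a type and less RNA per cell cannot be told apart in bulk tissue. The part of endothelial RNA in the fall of Hspa12b was not tested.

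**Figure D2:**
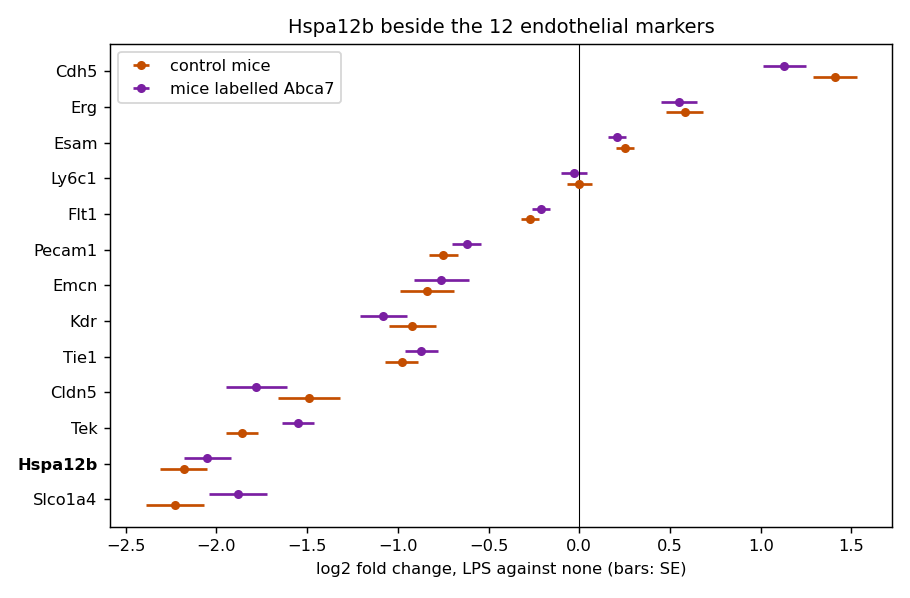
Log2 fold change under LPS (x axis, bars show the SE) of Hspa12b, in bold, and of 12 endothelial marker genes (y axis) in both genotypes, 6 mice a group. Hspa12b lies among the markers that fell furthest, next to Slco1a4, while Cdh5, Erg and Esam lie above 0.

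Among J proteins of the cytosol and nucleus, Dnajb5 and Dnajb1 fell in both genotypes. Dnajb5 (chr4:42949814-42959425), a class B J protein, lay at 135 to 173 CPM (median 145) in unstimulated controls and 96.0 to 118 (median 107) with LPS. With the Abca7 label it lay at 124 to 168 (median 149) and at 103 to 122 (median 110). The groups did not overlap in either genotype, although the margin was narrow in mice labelled Abca7. The log2 fold change was -0.48 ± 0.06 SE (adjusted p = 1.49e-06) in control mice and -0.43 ± 0.06 (adjusted p = 1.39e-05, edgeR) in mice labelled Abca7. Dnajb5 is not listed as overlapping another gene in GENCODE M21.

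Dnajb1 (chr8:83608175-83611902) is the main inducible HSP40, the partner of HSP70 and itself a target of Hsf1. It lay at 41.5 to 54.1 CPM (median 46.6) in unstimulated controls and 38.7 to 41.7 (median 39.6) with LPS. With the Abca7 label the ranges were 40.6 to 52.7 (median 46.5) and 38.4 to 46.1 (median 40.5). The groups overlapped in both genotypes, only at the edge in control mice. Dnajb1 fell by 0.25 ± 0.06 on the log2 scale in control mice (adjusted p = 0.00212) and fell by 0.18 ± 0.06 in mice labelled Abca7 (adjusted p = 0.0338, edgeR). The latter call was lost when any of 8 single libraries was left out, replicates 1, 2, 5 and 6 with LPS or replicates 1 to 4 without it (adjusted p 0.0515 to 0.0983). It was also lost without the 2 unstimulated libraries high in chaperones (log2 fold change -0.15, adjusted p = 0.101), described further on, and with surrogate variables (-0.09, adjusted p = 0.261).

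Dnajc21 (chr15:10446756-10470516), a J protein of ribosome assembly, also fell in both genotypes without overlap. Its level was 25.7 to 28.8 CPM (median 26.6) in unstimulated controls and 18.8 to 21.3 (median 19.8) with LPS. The corresponding ranges in mice labelled Abca7 were 22.5 to 31.2 (median 24.6) and 18.3 to 22.1 (median 20.8). In the mice labelled Abca7 the gap between the groups was small. The log2 fold changes were -0.44 ± 0.06 SE (adjusted p = 2.38e-06) and -0.30 ± 0.06 (adjusted p = 0.000867, edgeR).

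Of 11 J proteins of the ER, 2 fell in control mice and 1 of these in mice labelled Abca7. Dnajc1 (chr2:18195654-18392830), an ER membrane J protein that binds ribosomes, lay at 37.7 to 41.9 CPM (median 40.2) in unstimulated controls and 31.7 to 34.7 (median 33.6) with LPS, without overlap. Levels with the Abca7 label were 36.2 to 42.9 (median 39.3) and 31.9 to 37.6 (median 34.4), and those groups overlapped. The log2 fold changes were -0.26 ± 0.04 SE (adjusted p = 3.29e-05) and -0.20 ± 0.04 (adjusted p = 0.0015, edgeR). With the level of Ttr as a covariate the fall in control mice was -0.16 and no longer called (adjusted p = 0.0877). Of the exon bases of Dnajc1, 6.43% also belong to the neighbouring gene Mllt10.

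Dnajc14 (chr10:128805676-128819446), an ER membrane J protein that takes part in receptor export, lay at 53.7 to 55.0 CPM (median 54.5) in unstimulated controls and 47.7 to 51.4 (median 50.4) with LPS. The ranges were 51.4 to 54.0 (median 52.3) and 49.3 to 53.9 (median 50.3) in mice labelled Abca7. It was thus lower in every control mouse with LPS, by a small margin, while the groups labelled Abca7 overlapped. The log2 fold change was -0.12 ± 0.03 (adjusted p = 0.00307) in control mice and -0.03 ± 0.03 (adjusted p = 0.528, edgeR) in mice labelled Abca7, and the difference of the responses was 0.09 ± 0.04 (adjusted p = 1). Dnajc14 shares 17.8% of its exon bases with Ormdl2 and Sarnp, and with Ttr as a covariate its log2 fold change in control mice was -0.13 (adjusted p = 0.0556).

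The remaining ER J proteins did not pass the threshold. Dnajc3, an inhibitor of the kinase PERK and a cochaperone of Hspa5, had log2 fold changes of -0.03 ± 0.06 and -0.14 ± 0.06 (adjusted p = 0.789 and 0.175). Dnajb11, which delivers clients to Hspa5, had -0.06 ± 0.05 and -0.13 ± 0.05 (adjusted p = 0.477 and 0.129). Dnajb9, a typical target of the unfolded protein response, had -0.01 ± 0.05 and 0.02 ± 0.05.

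Small heat shock proteins, which hold unfolding proteins in oligomers without ATP, included Hspb1 (HSP25, chr5:135887919-135889563), which rose most of the called members. It lay at 1.44 to 3.70 CPM (median 2.37) in unstimulated controls and 4.15 to 6.14 (median 4.52) with LPS. Levels with the Abca7 label were 2.32 to 4.24 (median 2.73) and 2.90 to 4.99 (median 4.03). Every control mouse with LPS was above every unstimulated control, whereas the groups labelled Abca7 overlapped.

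Hspb1 rose 1.91-fold in control mice (log2 fold change 0.93 ± 0.18 SE, adjusted p = 0.000273), against 0.42 ± 0.18 with the Abca7 label (adjusted p = 0.136, edgeR). The difference between the responses was -0.51 ± 0.25 (95% interval -1.02 to -0.00, adjusted p = 1 in edgeR), so no difference between the genotypes was called. With age as a factor the value with the Abca7 label was 0.70 (adjusted p = 0.00863, edgeR). With surrogate variables it was 0.67 (0.0108) and without the 2 libraries high in chaperones 0.53 (0.0293). The fit with age is not separate from the last. Replicate 1 of the unstimulated mice labelled Abca7, among those 2, was the only mouse of 58 days. Of the 50-base sequences of Hspb1, 50.1% also occur in another gene, mainly the pseudogene Hsp25-ps1, so its level is uncertain.

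Hspb6 (HSP20, chr7:30552178-30555443), a small heat shock protein of muscle and vessel walls that is also made in brain, lay at 2.71 to 3.62 CPM (median 3.24) in unstimulated controls and 4.08 to 5.05 (median 4.49) with LPS. Levels with the Abca7 label were 3.16 to 4.10 (median 3.41) and 3.32 to 5.01 (median 4.25). The control groups were separate and the groups labelled Abca7 overlapped. The log2 fold changes were 0.49 ± 0.09 SE (adjusted p = 0.000256) and 0.28 ± 0.09 (adjusted p = 0.0466, edgeR). The call in control mice was lost with Ttr as a covariate (0.18, adjusted p = 0.411), and that in mice labelled Abca7 was lost when any of 17 single libraries from all 4 groups was left out (adjusted p 0.0501 to 0.139, the highest without replicate 5 with LPS). The latter call was lost as well with RLE size factors (adjusted p = 0.0526), with no filter (0.0846), with age as a factor (0.118), with only the 12 libraries compared (0.101), without the 2 libraries high in chaperones (0.099) and with surrogate variables (log2 fold change 0.18, adjusted p = 0.375). Proser3, Gm38670 and Lin37 share 8.79% of its exon bases.

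Markers of vessel wall and astrocytes are given beside these 2 genes. Of 10 pericyte and smooth muscle markers 0 rose and 3 fell in control mice, and 0 rose and 2 fell in mice labelled Abca7. The fall of Acta2, smooth muscle actin, was -0.38 and -0.35. Of 10 astrocyte markers 5 rose in control mice and 3 in mice labelled Abca7, Gfap, the astrocyte filament protein, among them with 0.96 and 0.74. S100b, a calcium-binding protein of astrocytes, had 1.41 ± 0.43 in mice labelled Abca7 (adjusted p = 0.0306) and 0.15 in control mice (adjusted p = 0.868, edgeR). Without replicate 4 with LPS the value of S100b in mice labelled Abca7 was 0.05 (adjusted p = 0.598). The part of these cells in the rise of Hspb1 and Hspb6 was not tested.

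The other small heat shock proteins were not called. Hspb8, the partner of Bag3 in autophagy, had log2 fold changes of 0.10 ± 0.07 and -0.15 ± 0.08 (adjusted p = 0.438 and 0.22). Hspb2 had -0.70 ± 0.31 and -0.47 ± 0.32 (adjusted p = 0.13 and 0.421) at levels under 1 CPM, and it shares exon bases with Cryab on the opposite strand. Hspb3, Hspb7 and Hspb9 had adjusted p-values from 0.342 to 0.868.

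2 further J proteins were called in 1 genotype each. Dnajb3 (chr1:88204732-88205782), known mainly from testis, lay at 0.523 to 0.695 CPM (median 0.589) in unstimulated controls and 0.632 to 1.15 (median 0.848) with LPS, with overlap. Its log2 fold change was 0.54 ± 0.16 (adjusted p = 0.0202) in control mice and 0.26 ± 0.16 (adjusted p = 0.35, edgeR) in mice labelled Abca7, where levels ran from 0.529 to 0.953 and 0.628 to 0.974. The difference of the responses was -0.27 ± 0.23 (adjusted p = 1 in edgeR). The gene lies inside 9 others with which it shares no exon bases, and the call was lost with Ttr as a covariate (log2 fold change 0.55, adjusted p = 0.225) or without replicate 4 or 6 of the controls with LPS (0.0547 to 0.0582).

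Dnajc27 (chr12:4082574-4110612), a small GTPase with a J domain, lay at 146 to 158 CPM (median 151) in unstimulated controls and 152 to 167 (median 160.0) with LPS, and at 138 to 155 (median 145) and 151 to 159 (median 155) in mice labelled Abca7. Both pairs of groups overlapped. Its log2 fold change was 0.10 ± 0.03 (adjusted p = 0.027) in mice labelled Abca7 and 0.08 ± 0.03 (adjusted p = 0.056, edgeR) in control mice, with a difference of 0.02 ± 0.04 (adjusted p = 1). The call in mice labelled Abca7 was lost with age as a factor (adjusted p = 0.184), with surrogate variables (0.354), with no filter (0.0733), with only the 12 libraries compared (0.0721), without the 2 libraries high in chaperones (0.0902), and without replicate 2 or 3 with LPS or replicate 1, 2 or 6 without it (0.0516 to 0.0988). In control mice it passed with age as a factor (0.0437) and in 3 fits with a single library left out (0.0223 to 0.04).

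**Figure D3:**
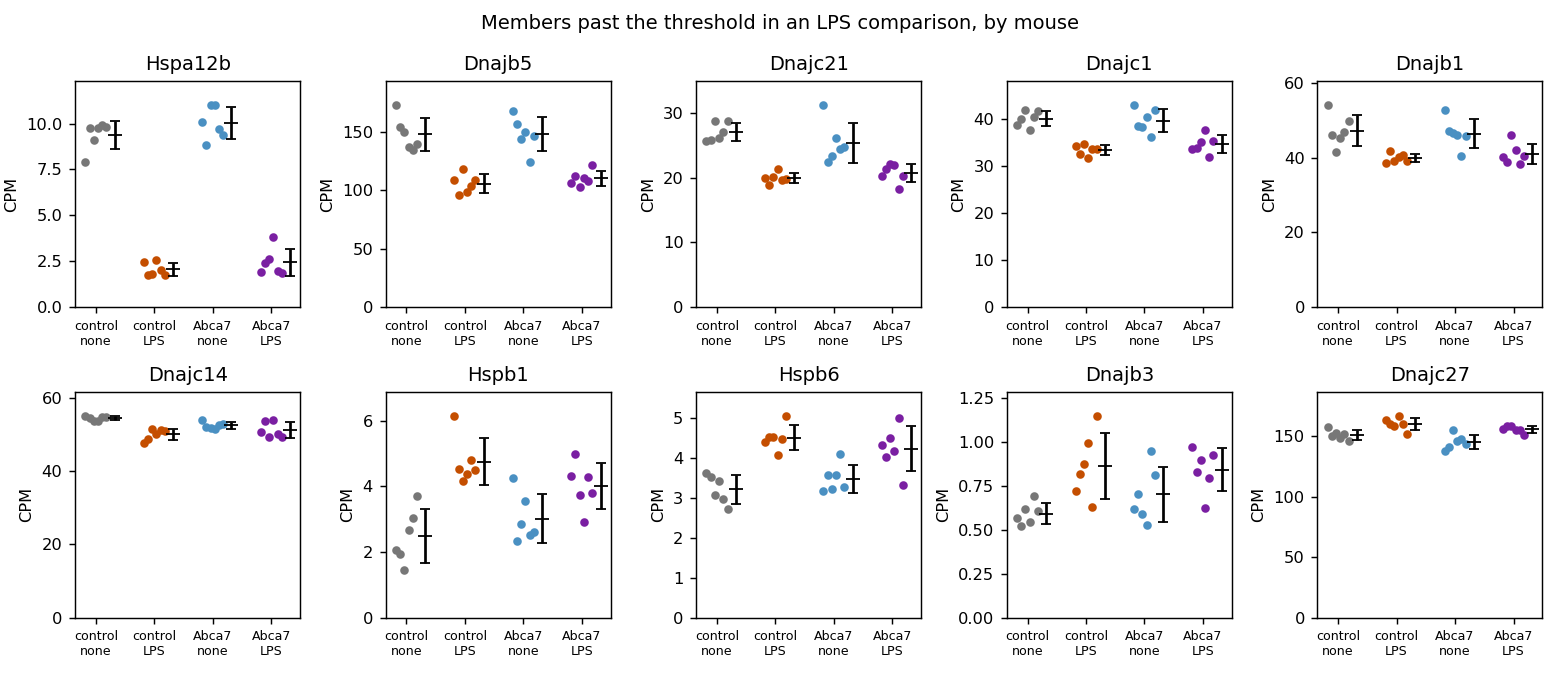
Level in CPM (y axis, starting at 0) of the 10 members past the threshold in an LPS comparison, 1 point per mouse in 4 groups of 6, with the mean and SD as a bar beside each group. Hspa12b separates the groups most, and Dnajc14 and Dnajc27 differ by a small part of their level.

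The classical inducible chaperones were not among the called members apart from Dnajb1 and Hspb1. Hspa1a, an inducible HSP70, lay at 5.09 to 9.21 CPM (median 6.53) in unstimulated controls and 5.96 to 7.64 (median 6.86) with LPS, and at 5.52 to 8.83 (median 6.15) and 5.65 to 7.65 (median 7.26) in mice labelled Abca7. The groups overlapped fully. The log2 fold changes were -0.03 (95% interval -0.31 to 0.24) and 0.06 (-0.22 to 0.33). Hspa1b, its neighbouring copy, had -0.11 (-0.46 to 0.23) and -0.04 (-0.38 to 0.31), and 66.3% and 62.3% of the 50-base sequences of Hspa1a and Hspa1b are found in other genes, mainly each other.

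Hsph1, the inducible HSP110 and a nucleotide exchange factor of HSP70, was nearest to a call. It lay at 265 to 361 CPM (median 304) in unstimulated controls and 274 to 290 (median 279) with LPS, and at 290 to 359 (median 307) and 255 to 298 (median 279) in mice labelled Abca7. The groups overlapped, with lower medians under LPS in both genotypes. The log2 fold changes were -0.12 ± 0.06 (adjusted p = 0.144) and -0.17 ± 0.06 (adjusted p = 0.054, edgeR). In mice labelled Abca7 the value passed the threshold with DESeq2 (adjusted p = 0.0302), with RLE size factors (0.0449) and with Ttr as a covariate (0.0395). It also passed in a separate edgeR fit of only the 12 libraries compared (0.0352). The same held without any of 5 single libraries, replicate 4 of either group labelled Abca7 or replicate 2, 3 or 6 of the unstimulated controls (0.0232 to 0.049). Without replicate 3 of the unstimulated controls the value in control mice was -0.17 (0.0364).

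The constitutive Hsp90ab1 and Hspa8 and the inducible Hsp90aa1 had narrow intervals around no change. For Hsp90ab1 the 95% interval of the log2 fold change was -0.07 to 0.06 in control mice and -0.09 to 0.05 in mice labelled Abca7. For Hsp90aa1 it was -0.07 to 0.07 and -0.09 to 0.05, and for Hspa8 -0.11 to 0.12 and -0.18 to 0.05. These 3 are the most abundant members per length.

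Chaperones of the mitochondria were not called either. Hspd1 and Hspe1, the 2 parts of the mitochondrial chaperonin, had log2 fold changes of 0.01 ± 0.04 and -0.02 ± 0.05 in control mice and -0.06 ± 0.04 and -0.05 ± 0.05 in mice labelled Abca7. Hspa9, the mitochondrial HSP70, had 0.07 ± 0.04 and 0.03 ± 0.04. Of 8 mitochondrial J protein genes 0 were called (edgeR). In control mice 1 of them had an unadjusted p under 0.05, as did 29.1% of all genes tested.

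In the ER, Hspa5 (BiP) lay at 223 to 382 CPM (median 248) in unstimulated controls and 245 to 307 (median 259) with LPS, and at 260 to 344 (median 275) and 211 to 280.0 (median 253) in mice labelled Abca7. The unstimulated controls had the widest range. The log2 fold changes were -0.05 (95% interval -0.26 to 0.16) and -0.19 (-0.40 to 0.02). Among mice of the same age the difference in controls was -0.41 at 55 days (2 mice against 2) and 0.21 at 56 days (3 against 3). Hsp90b1 (GRP94) had -0.04 ± 0.07 and -0.13 ± 0.07 (adjusted p = 0.725 and 0.22).

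The heat shock factors were not called. Hsf1, the main activator of inducible members, lay at 27.3 to 32.6 CPM (median 30.4) in unstimulated controls and 27.4 to 31.7 (median 29.5) with LPS, with a log2 fold change of -0.04 ± 0.05 in control mice and -0.07 ± 0.05 in mice labelled Abca7. Hsf2 had -0.05 ± 0.05 and -0.11 ± 0.05 (adjusted p = 0.614 and 0.201), and with age as a factor -0.20 in mice labelled Abca7 (adjusted p = 0.0118). Transcript levels do not show the activity of these factors, which is largely set after translation.

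Other genes of the chaperone network gave few calls. Of 9 nucleotide exchange factors and Bag proteins, Bag3, the autophagy partner of Hspb8 and a known Hsf1 target, rose in control mice (0.50 ± 0.11, adjusted p = 0.00092) and had 0.19 ± 0.11 in mice labelled Abca7 (adjusted p = 0.28). Of 23 HSP90 and HSP70 cochaperones without a J domain, Fkbp5, a glucocorticoid-induced partner of HSP90, rose by 1.06 and 0.83 (adjusted p = 6.9e-06 and 0.000266). In control mice Cdc37l1 also rose (0.14) and Ahsa2 fell (-0.14). None of 14 genes of the CCT chaperonin and prefoldin, 4 tested J proteins outside the naming rule, 3 tested further heat shock proteins or 3 heat shock factor genes was called in an LPS comparison (edgeR). At an unadjusted p under 0.05 there was 1 gene of the CCT and prefoldin list in control mice. In mice labelled Abca7 there was 1 of the further heat shock proteins. Over all genes tested 29.1% lay under it in control mice and 23.5% in mice labelled Abca7 (edgeR).

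Of 25 genes of ER chaperones and the unfolded protein response, 1 rose and 1 fell in control mice, Ppp1r15a (0.27 ± 0.08), which restores translation after stress, and Edem1 (-0.21 ± 0.05), a lectin of ER-associated degradation. In mice labelled Abca7 3 fell, namely Pdia4 (-0.36 ± 0.11), Pdia6 (-0.26 ± 0.08) and Manf (-0.25 ± 0.08), the first 2 being disulfide isomerases. At an unadjusted p under 0.05 there were 7 of the 25 in control mice and 12 in mice labelled Abca7 (edgeR). Of all genes tested, 29.1% and 23.5% lay under it. Replicate 1 of the unstimulated mice labelled Abca7, described further on as high in chaperones, was the highest of its group for all 3, with 50.9 CPM of Pdia4 against 38.0 to 43.7 in the others, 109 of Pdia6 against 82.5 to 90.6, and 44.5 of Manf against 32.4 to 37.7. Without the 2 high libraries the log2 fold changes were -0.30 for Pdia4 (adjusted p = 0.00636), -0.21 for Pdia6 (0.02) and -0.19 for Manf (0.0614), so the call of Manf was lost. The median over the 25 was -0.05 and -0.08, beside 0.01 over all genes tested in each genotype. Of the 2 cold-inducible RNA-binding proteins, Cirbp rose by 0.30 ± 0.07 and 0.33 ± 0.07 (adjusted p = 0.00196 and 0.000806) and Rbm3 had 0.01 ± 0.07 and -0.00 ± 0.07. Of 13 immediate early genes, which follow neuronal activity, 8 fell in each genotype and 2 rose in control mice. Their largest falls were those of Egr2 (-1.93 and -1.72) and Arc (-1.51 and -1.46).

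The genotype label moved no member past the threshold. Of the 73, 0 were called without LPS (0.032% of all genes tested), 0 under LPS (0%), 0 in the average over both stimuli (0.26%) and 0 in the difference of the LPS responses (0%), in edgeR. At an unadjusted p under 0.05 the counts were 2, 1, 6 and 5 of the 73, while 6.51%, 7.99%, 11% and 3.4% of all genes tested lay under it. DESeq2 called 0, 0, 1 and 0 members, and 0.166%, 0.297%, 1.68% and 0% of all genes with an adjusted p.

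The smallest p without LPS and in the average belonged to Dnajc6, auxilin, which uncoats clathrin vesicles in neurons together with Hspa8. Its level was 310 to 342 CPM (median 323) in unstimulated controls and 292 to 320 (median 305) in unstimulated mice labelled Abca7. With LPS it was 306 to 330 (median 318) in controls and 304 to 312 (median 308) in mice labelled Abca7. Both pairs overlapped, with lower medians in mice labelled Abca7. The log2 difference was -0.08 ± 0.03 without LPS (adjusted p = 0.494) and -0.07 ± 0.02 in the average (adjusted p = 0.145, edgeR). In the average it passed with DESeq2 (adjusted p = 0.0317) and with surrogate variables (0.0231).

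Under LPS the smallest p was that of Hspb8, at 10.5 to 11.8 CPM (median 10.6) in controls and 7.99 to 10.8 (median 8.97) in mice labelled Abca7. The log2 difference was -0.24 ± 0.08 (adjusted p = 0.352, edgeR). It was followed by Hspa9 (-0.07 ± 0.04) and Hspa4l, an HSP110 (-0.08 ± 0.04). In the difference of the LPS responses the leading members were Hspb8 (-0.25 ± 0.11), Dnajb13, a J protein of cilia and sperm tails (-1.06 ± 0.48), and Dnajc4 (0.19 ± 0.09), all with adjusted p = 1 in edgeR. Dnajb13 lay under 1 CPM in every library, and 1 of 7 ependymal markers rose in control mice.

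Within groups, many of 15 reference members were higher or lower together in the same mice. Each group's mean was removed from the log2 CPM of the 24 libraries. Of 105 pairs among 15 reference members, 40 had an adjusted permutation p under 0.05 for Pearson's r, and all 40 were positive. Pairs of other genes were not examined, so no share over all genes stands beside this count. Some of the 40 weakened without the 2 libraries farthest from the median of the first gene. Hspa1b with Hspd1 went from 0.60 to 0.24 and Hsp90ab1 with Hsp90b1 from 0.72 to 0.36. The latter pair had r = -0.37 in mice labelled Abca7 with LPS. Hspa5 and Hsp90b1 correlated most closely (r = 0.95, rho = 0.92, permutation p = 1e-05, the smallest that 100000 permutations can give, adjusted 0.00052). The r was 0.91 without the 2 libraries farthest from the median of Hspa5, and 0.86 to 0.98 within the 4 groups. These are 2 of the genes whose promoters hold the ER stress response element shown above. Dnajc3, the other, was not among the 15, and the part of the element in the correlation was not tested.

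Chaperones of other compartments joined them. Hsph1 correlated with Hspa5 at r = 0.88 (rho = 0.78, permutation p = 1e-05, adjusted 0.00052; 0.78 without the 2 farthest libraries) and with Hspa8 at r = 0.85 (rho = 0.81, permutation p = 3e-05, adjusted 0.00052; 0.79 without them). Hspe1 correlated with Hspa5 at r = 0.76 (rho = 0.71, permutation p = 9e-05, adjusted 0.0013; 0.67 without them). Within the 4 groups r ran from 0.47 to 0.96 for Hsph1 and Hspa5, from 0.35 to 0.96 for Hsph1 and Hspa8, and from 0.62 to 0.95 for Hspe1 and Hspa5. The first 2 pairs had their lowest r in controls with LPS and their highest in unstimulated controls. Hspa1a and Hspa1b correlated at r = 0.85, but share sequence. Hsf1 and Hspa5 had r = 0.26 (rho = 0.14, permutation p = 0.34). The points share library preparation, depth and the TMM scaling factor of each library (0.901 to 1.07), whose part was not tested.

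**Figure D4:**
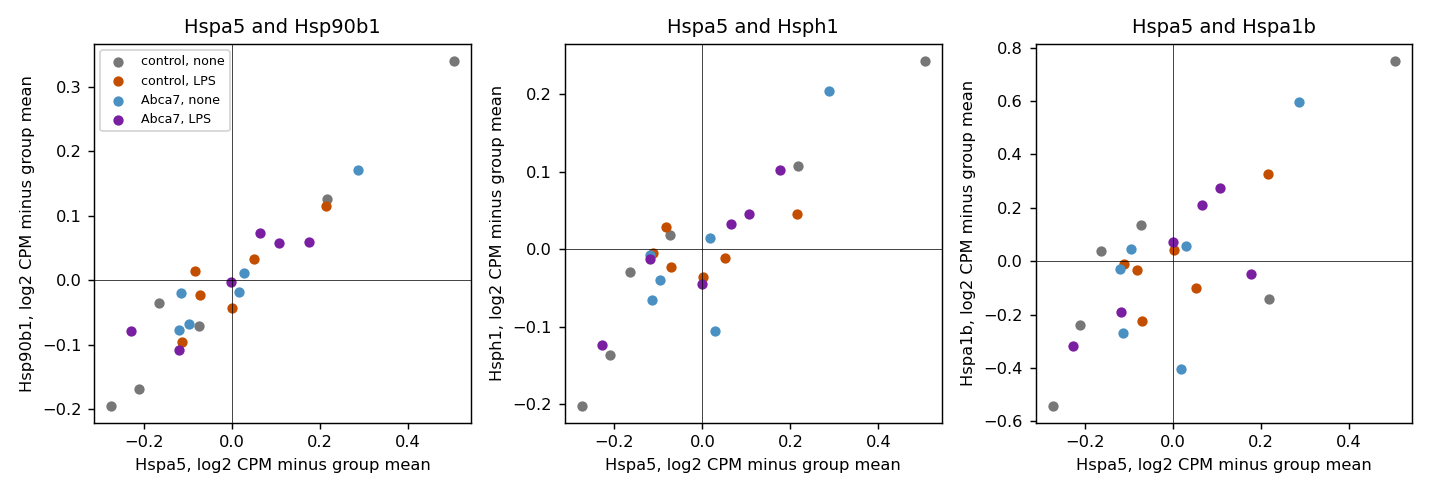
Log2 CPM minus the group mean of Hspa5 (x axes) against Hsp90b1, Hsph1 and Hspa1b (y axes), 1 point per mouse, coloured by group, n = 24. The points rise together most tightly for Hsp90b1, and an unstimulated control and an unstimulated mouse labelled Abca7 lie at the upper right of each panel.

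A single mouse in each unstimulated group had most of the highest values. Replicate 6 of the unstimulated controls was highest of its group for 13 of the 15 reference members, and replicate 1 of the unstimulated mice labelled Abca7 for 12 of 15. Hspa5 was at 382 CPM in the former, against 223 to 313 in the other controls, and at 344 in the latter, against 260 to 288. The latter was also the only mouse of 58 days, so age as a factor fits it by itself. Its library had the lowest total, 48149131 counts, and the lowest TMM scaling factor of all libraries, 0.901. Before scaling, the members took 0.672% of its counts, in a group range of 0.671% to 0.746%. For replicate 6 of the unstimulated controls the factor was 0.989 and the share 0.770%, the highest of its group. The part of the scaling in the high values of these libraries was not tested. With these 2 libraries left out together, a choice made after seeing the data, 6 members rose in control mice in place of 3 (8.22%, against 8.9% of all genes tested), and 1 of the 73 rose in mice labelled Abca7 in place of 2 (against 5.8% of all genes tested).

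The spread between mice was smaller with LPS for 13 of the 15 reference members in control mice and 14 of 15 in mice labelled Abca7, by coefficient of variation. Over all 73 members the counts were 49 (67.1%) and 46 (63%), and over all genes tested the shares were 53.5% and 55.1%. Without the 1 high library of each unstimulated group the counts were 13 and 6 of 15 and, over all members, 39 (53.4%) and 32 (43.8%), beside 50.1% and 47.1% of all genes. The libraries left out were those highest for most of these same 15 members, and none was left out with LPS. A smaller unstimulated spread follows largely from that choice. The fall from 14 to 6 in mice labelled Abca7 therefore cannot show what the pattern rested on. For Hspa5 the coefficient was 22.5% in unstimulated controls and 8.71% with LPS.

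**Figure D5:**
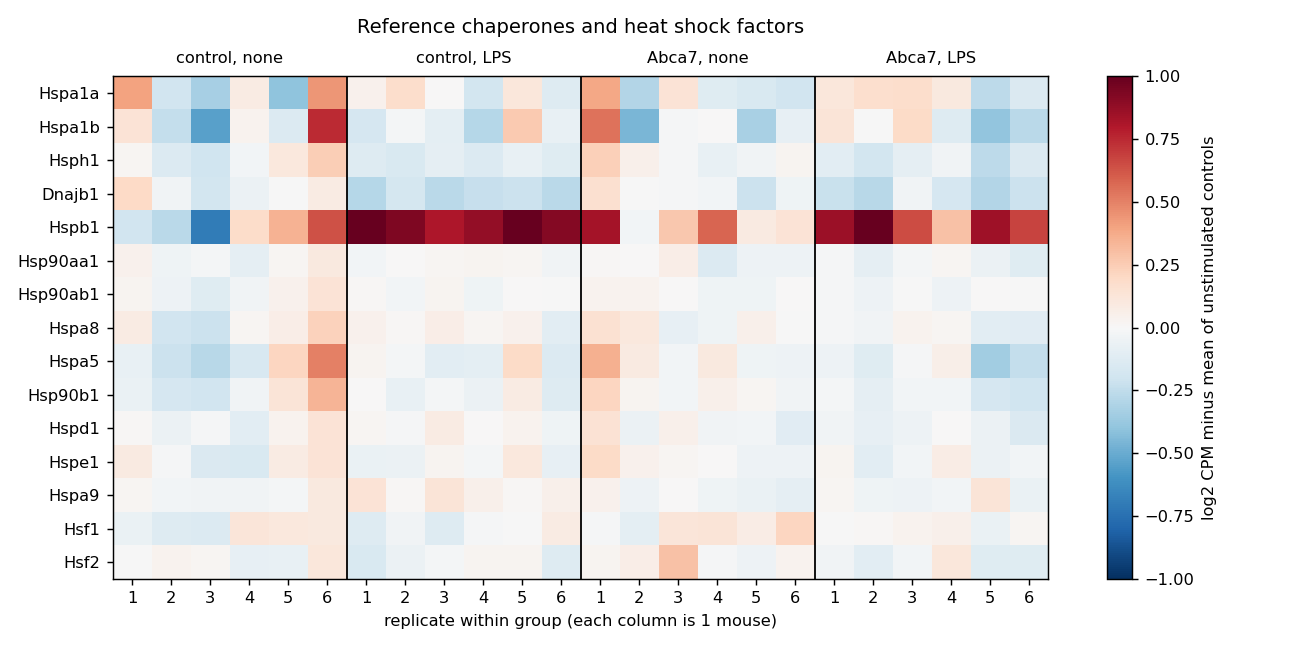
Log2 CPM of 15 reference chaperones and heat shock factors (rows) in each of 24 mice (columns, numbered within the 4 groups), minus the mean of the unstimulated controls; red is higher and blue lower. Hspb1 is high in the LPS groups, and replicate 6 of the unstimulated controls and replicate 1 of the unstimulated mice labelled Abca7 are high across many rows.

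Age differed slightly between the groups and was compared within days. Hspa12b differed by -2.24 at 55 days and -2.07 at 56 days in control mice and by -2.34 and -2.33 in mice labelled Abca7 (log2 CPM, LPS minus none). Hspb1 differed by 0.65 and 1.33 in control mice and by 0.53 and 0.69 in mice labelled Abca7, and Dnajb5 by -0.33 and -0.67 and by -0.40 and -0.41. These rest on 2 against 2 and 3 against 3 control mice and on 2 against 3 and 2 against 1 mice labelled Abca7, and were not tested.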

How the data were processed

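Cortical RNA of 24 mice was sequenced, and the authors deposited raw counts per gene, whole numbers without normalization. Reads were mapped to mm10 with STAR 2.5.2b per the submitters' processing notes and counted with MAP-RSeq 2.1.1 per the series' design text. The annotation release, strand setting and handling of multiply mapped reads are not named there, so genes that overlap or share sequence are uncertain. Of the 43346 identifiers 42462 occur in GENCODE M21, which was used for overlaps and shared 50-base sequences.

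Groups came from the genotype and stimulus labels. Genes were kept with filterByExpr (21891 genes) and scaled with TMM. All 24 libraries entered one edgeR 4.0.16 quasi-likelihood fit (R 4.3.3) with 1 coefficient per group. Tests were two-sided, p-values were Benjamini-Hochberg adjusted across the genes tested, and 0.05 was the threshold. An SE is the log2 fold change over the root of F, and log2 CPM used a prior count of 2. The procedure was tested on simulated counts. Alternatives were DESeq2 1.42.0, RLE size factors, no filter, age as a factor, log2 Ttr as a covariate, 5 surrogate variables (sva 3.50.0), only the 12 libraries compared, and each library left out. Depth, 48149131 to 75741388 counts, limits members under 1 CPM most.

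Named were 15 reference members, members called in both LPS comparisons, the leading 3 on each side in 1 comparison alone, the 3 with the smallest p per genotype comparison, and the 3 highest and lowest per length. Listed pathway genes were named if among the 2 highest or lowest called. Hspa12a, Dnajc3, Dnajb11, Dnajb9, the small heat shock proteins that were not called, and marker genes were added after their values were seen. Members and lists were chosen with earlier results of these data known. Promoter sequences are from RefSeq (GRCm38.p6); 72 of 73 members are in GENCODE M21.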

Additional observations from a re-analysis of the deposited data

Results flagged for a closer look

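The 31 members named by rule were examined in each group, as 124 sets of 6 mice. Hspa12a, Dnajc3, Dnajb11, Dnajb9, Hspb2 and Hspb3, also described above, were not examined. Of the 124 sets, 8 held a mouse that stood far from the other 5, where chance gives about 1 in 20. Replicate 1 of the unstimulated mice labelled Abca7 accounted for 4: Hspa1b at 9.64 CPM (others 4.8 to 6.61), Hsph1 at 359 (290.0 to 315), Hspa5 at 344 (260 to 288) and Hsp90b1 at 338 (284 to 302). In the unstimulated mice labelled Abca7, Hsf2 was at 25.5 CPM in replicate 3, against 20 to 21.8 in the others, and in those with LPS it was at 22.5 in replicate 4, against 19.1 to 20.3. Among controls with LPS, Hspb1 was at 6.14 CPM in replicate 1 (others 4.15 to 4.8) and Hspa8 was lowest, at 502, in replicate 6 (others 544 to 567).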

How the results depend on the processing

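The falls of Hspa12b, Dnajb5 and Dnajc21 in both genotypes, of Dnajb1 in control mice and the rise of Hspb1 in control mice were called in every alternative run. No called value changed sign. Values called in neither setting changed sign in 64 of 1505 cases and are not counted. In control mice 6 members rose with age as a factor, 5 with surrogate variables and 6 without the 2 libraries high in chaperones, in place of 3 (10%, 8.56% and 8.9% of all genes, in place of 9.39%), and 2 to 6 with single libraries left out (5 without control LPS replicate 1, 6 without unstimulated control replicate 6); 6 to 7 fell. In mice labelled Abca7 1 rose with RLE size factors, 0 without the filter (which tests more genes), 0 with only the 12 libraries compared (which has fewer samples) and 1 without the 2 high libraries, in place of 2 (6.44%, 3.85%, 5.86% and 5.8% of all genes, in place of 6.65%), and 0 to 2 with single libraries left out; 4 to 7 fell. Over all genes, 22009 to 22107 were tested with a single library left out. In control mice 1766 to 2345 of them rose and 1413 to 1930 fell. In mice labelled Abca7 1257 to 1528 rose and 894 to 1313 fell. For the genotype label, 1 member was called with surrogate variables without LPS, in place of 0 (0.598% of all genes tested). In the average 1 member was called with surrogate variables (2.53% of all genes) or DESeq2 (1.68%), in place of 0. With single libraries left out 0 were called. Unless the setting itself says it, the cause was not tested. No paired analysis was possible because the labels give no replicate numbers that could pair mice between groups. Levels under 1 CPM, as for Hspb2, Hspb7, Hspb9, Dnajb7 and Dnajb13, limit what could be called.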
